A study of Mus musculus with 23 samples.

Results

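Genes of mitosis, the kinetochore and the spindle were followed in mouse medulloblastoma allografts treated with NVP-LDE225, an antagonist of Smoothened, the transducer of the Hedgehog signal. A list of 58 genes was taken by name, and every probe set whose platform annotation gave 1 of these symbols and no other was used. Of the 58 genes, 57 had such a probe set, giving 128 of the 45101 probe sets on the array. Ccnb1, the gene of a B-type cyclin, had none with its symbol alone. Low signals were kept out of the tests: a probe set had to lie above the 40th percentile of an array on 2 or more of the 23 arrays, and 122 of the 128 did. These cover 56 genes, because the single probe set of the kinesin gene Kif15 was not above that level. Where a gene had several tested probe sets, the brightest on average over all arrays stands for it. Signals were compared within a gene and not between genes.

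When a cell enters mitosis, cyclin-dependent kinase 1 with its cyclins starts chromosome condensation and spindle assembly, and kinetochores built on centromeres bind the spindle microtubules. The spindle checkpoint restrains the anaphase-promoting complex until every kinetochore is attached, after which separase opens cohesin and the cell cleaves. Many of these genes are transcribed late in the cell cycle through CCAAT boxes and the cell cycle genes homology region (CHR), whereas genes of DNA replication are typically transcribed earlier through E2F sites. Medulloblastomas with active Hedgehog signalling resemble granule neuron progenitors of the cerebellum, which divide in response to that signal.

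All 23 arrays held tumours with the genotype Ptch+/-HIC+/-, which were grown beneath the skin of nude mice (Harlan nu/nu), hosts without mature T cells that keep their other blood, vessel and connective tissue cells. Ptch1, the Hedgehog receptor, restrains Smoothened. Vehicle was given in 3 arrays with no stated time and in 2 arrays at 4 h, all labelled sensitive. Other tumours received 40 mg/kg of NVP-LDE225 and were taken at 4, 8, 24 and 48 h, with 3 arrays at each time. Tumours labelled resistant were under 40 mg/kg (3 arrays) or 160 mg/kg (3 arrays), with no stated time since dosing. The age of the mice is not given in the labels. On 6 of the 12 arrays of short treatment the source name calls the tumour resistant although the description gives a time in hours; groups here follow the description. Whether replicates are separate animals is not labelled, and the p-values rest on a spread between samples that may be technical.

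The deposited values were linear MAS5 signals, scaled so that each array's 2% trimmed mean was 150, and the median signal per array lay between 33.9 and 46.7. Precision is limited by the number of arrays. Of 13 tested granule lineage markers, among them Atoh1, Zic1 and Barhl1, 1 (Eomes) was below the 40th percentile on all 3 vehicle arrays, and their summed signal was 15386 to 16976 there. Host tissue was also measured: 20 skeletal muscle markers summed to 1136 to 14669 on the vehicle arrays, and 15 fibroblast markers to 4866 to 10847. Of 14 macrophage markers, which summed to 1727 to 2884 there, Cd163 and Itgam were below the 40th percentile on all 3 vehicle arrays.

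Promoter windows of 300 bases, from 250 before to 50 after a transcription start, were taken from RefSeq for build GRCm38.p6. They were found for 50 of the 58 genes, which had 55 windows, among 32851 windows of all genes. The CHR was searched as TTTGAA or as TTCGAA and the CCAAT box by its 5 letters, each on both strands. A CHR was present in 40 of the 55 windows (72.7%), against 19.2% of all windows. A CCAAT box was present in 43 (78.2%), against 37.4% of all windows. Both were present in 35 windows (63.6%), against 7.52% of all. An E2F-like core was searched on both strands as TTCCCGC and as TTGGCGC, and also as TTCGCGC or as TTGCCGC. It was in 12 windows (21.8%), against 9.57% of all windows. Comparison sets were searched in the same way. Of 72 windows of other mitosis genes, a list described below, 52.8% held a CHR, 61.1% a CCAAT box and 26.4% an E2F-like core. In 23 windows of origin licensing and helicase genes these shares were 30.4%, 60.9% and 56.5%. Of 31 windows of replication fork and S phase genes, 3 held a CHR (9.68%), 15 a CCAAT box (48.4%) and 19 an E2F-like core (61.3%). A CCAAT box on the other strand reads ATTGG and can share its last letters with TTGGCGC; a match is a description of sequence, not of binding.

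Shown are the windows of the 4 genes with the smallest p-values for the fall between 8 h and 24 h of drug among those whose window holds a motif, as examples of promoters of genes that fell then, and 1 window without a match. They read 5′ to 3′ in the direction of transcription, with CHR and CCAAT matches in capitals; on the other strand these read TTCAAA and ATTGG. Cdc20, the activator of the anaphase-promoting complex, is at chr4:118437294-118437593 on the minus strand. Its CHR begins 18 bases before the start, between CCAAT boxes at -53 and -8.
Cdc20: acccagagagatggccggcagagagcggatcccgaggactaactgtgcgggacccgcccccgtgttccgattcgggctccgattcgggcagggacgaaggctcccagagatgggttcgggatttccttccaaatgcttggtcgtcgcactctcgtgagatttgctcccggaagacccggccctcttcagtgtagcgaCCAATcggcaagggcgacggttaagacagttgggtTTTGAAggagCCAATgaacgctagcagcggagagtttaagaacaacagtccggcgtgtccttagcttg
Mki67, the gene of the Ki-67 protein that coats mitotic chromosomes, is at chr7:135716330-135716629 on the minus strand. It has 2 CHR matches, at -116 and -98, downstream of 3 CCAAT boxes, and 1 E2F-like TTGGCGC at -67, left in lower case.
Mki67: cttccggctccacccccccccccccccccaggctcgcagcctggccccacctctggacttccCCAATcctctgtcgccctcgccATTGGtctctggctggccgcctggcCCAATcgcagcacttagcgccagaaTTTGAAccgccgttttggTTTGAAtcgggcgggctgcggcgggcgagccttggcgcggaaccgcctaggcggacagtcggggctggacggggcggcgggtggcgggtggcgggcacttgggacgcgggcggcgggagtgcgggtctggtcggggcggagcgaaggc
Top2a, DNA topoisomerase II alpha, is at chr11:99024140-99024439 on the minus strand, with 4 CHR matches and 6 CCAAT boxes.
Top2a: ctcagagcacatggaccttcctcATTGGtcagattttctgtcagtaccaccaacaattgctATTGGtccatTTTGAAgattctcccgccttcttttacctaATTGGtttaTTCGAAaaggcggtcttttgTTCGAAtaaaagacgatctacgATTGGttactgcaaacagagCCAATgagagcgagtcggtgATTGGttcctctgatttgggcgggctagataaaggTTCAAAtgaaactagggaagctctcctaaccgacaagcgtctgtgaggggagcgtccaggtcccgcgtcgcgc
Cenpa, the centromeric histone H3 variant, is at chr5:30666636-30666935 on the plus strand, with 2 CCAAT boxes and a CHR that begins 17 bases after the start.
Cenpa: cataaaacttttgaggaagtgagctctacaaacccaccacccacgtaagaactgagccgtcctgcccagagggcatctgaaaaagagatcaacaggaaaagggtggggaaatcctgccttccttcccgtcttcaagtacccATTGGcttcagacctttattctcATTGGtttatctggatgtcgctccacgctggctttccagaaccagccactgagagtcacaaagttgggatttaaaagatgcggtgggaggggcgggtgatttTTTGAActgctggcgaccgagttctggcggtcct
Nusap1, a spindle microtubule-binding protein, is at chr2:119618048-119618347 on the plus strand and holds neither motif.
Nusap1: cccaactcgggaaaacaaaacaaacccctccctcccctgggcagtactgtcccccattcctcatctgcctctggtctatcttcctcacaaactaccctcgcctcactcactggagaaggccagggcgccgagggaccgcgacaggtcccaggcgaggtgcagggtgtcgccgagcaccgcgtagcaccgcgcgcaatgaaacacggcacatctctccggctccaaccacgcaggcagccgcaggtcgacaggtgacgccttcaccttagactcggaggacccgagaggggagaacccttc
Neither motif was found in the windows of 7 of the genes, namely Birc5, Mad2l1, Melk, Ncaph, Nuf2, Nusap1 and Pttg1. At 24 h of drug the median log2 change was -3.27 among the 36 tested genes with a CHR (range -4.23 to -0.71) and -3.11 among the 12 without (range -3.54 to -1.81).

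All 56 tested genes were lower at 24 h of drug than in vehicle, by a median log2 change of -3.12, and all 56 were lower at 48 h, by a median of -2.78. Changes are differences of log2(signal + 16), which understates the change of low signals, and a gene was called when limma's p, adjusted over all 35069 probe sets tested, was under 0.05. Of all these probe sets 12.5% were called lower and 16.6% higher at 24 h, and 17.7% and 20.6% at 48 h. Values after ± are standard errors of the fit, with 3 arrays in each group (2 in the 4 h vehicle). The median change of all was 0.10 at 24 h and 0.04 at 48 h. On each of the 56 genes every 24 h array was below every vehicle array, as were 17.7% of all probe sets, and every 48 h array was too, as were 22.5%. Median changes were near 0 at 4 h and 8 h, and in resistant tumours they lay between those of 48 h and 0. In tumour tissue, fewer dividing cells and less RNA per cell cannot be told apart. All 56 genes exceeded the 40th percentile on every vehicle, 4 h, 8 h and resistant array. On the 24 h arrays 46 did so on all 3, and Cdc25c, Cenph, Kif20a, Kif4, Ndc80 and Ttk did so on fewer than 2.

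**Figure D1:**
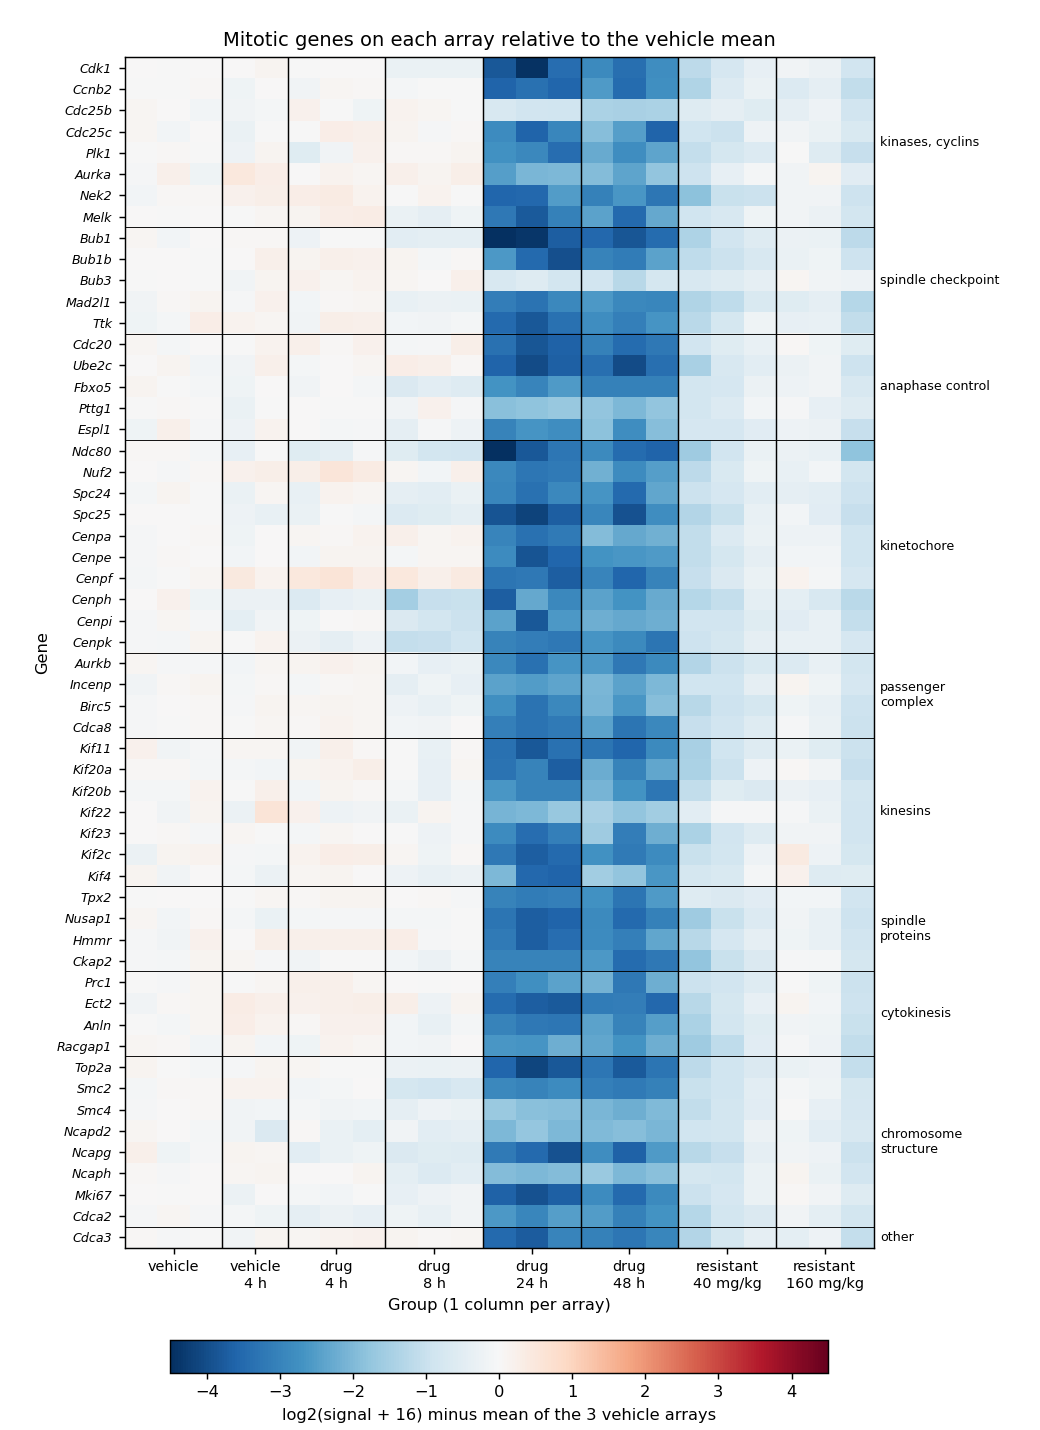
Log2(signal + 16) of the 56 tested genes (vertical, grouped by role) on each of 23 arrays (horizontal, grouped by treatment), minus the gene's mean on the 3 vehicle arrays; blue is lower and red higher. The 24 h and 48 h columns are low for nearly every gene, with median changes of -3.12 and -2.78, while the 4 h columns are near 0 and the resistant columns lie in between.

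Markers of host tissue moved at the same times. The 20 muscle markers summed to 15054 to 20147 at 24 h and 2313 to 19541 at 48 h, and the 15 fibroblast markers to 21878 to 28877 and 39532 to 56274. The 14 macrophage markers summed to 3728 to 6163 at 24 h and to 29286 to 39550 at 48 h. Granule lineage markers summed to 24868 to 29098 at 24 h and 22053 to 26531 at 48 h, above the vehicle range, but not all moved one way. Of the 13, 9 were called higher and 1 (Mycn) lower at 24 h, and 7 higher and 4 (Atoh1, Cxcr4, Mycn and Pax6) lower at 48 h. Beta-actin probe sets at the 3′ and 5′ ends of the transcript, a measure of RNA integrity, differed by 1.41 to 1.83 on the log2 scale at 24 h, by 0.84 to 0.96 at 48 h and by 1.00 to 1.08 in vehicle. On the vehicle array whose muscle markers summed to 14669, the mean log2 signal of the 56 genes was within 0.01 of the vehicle mean. That is 1 array, and its macrophage markers summed to only 2770. The part of these measures in the falls was not tested.

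Among the mitotic kinases, cyclins and phosphatases, 8 of 8 tested genes fell at 24 h and at 48 h (medians -3.16 and -2.70). Cdk1, the kinase that drives entry into mitosis, had signals of 2137, 2058 and 2125 in vehicle, 2069, 2152.5 and 2142 at 4 h and 1722, 1694 and 1718 at 8 h. At 24 h its signals were 135, 81.9 and 183, and at 48 h 273, 184 and 289. The 8 h arrays lay just below every vehicle array and the later arrays far below, with a log2 change of -3.89 ± 0.21 at 24 h (adjusted p = 1.59e-12) and -3.03 ± 0.21 at 48 h (adjusted p = 5.39e-11). Ccnb2, cyclin B2, a partner of that kinase, went from 1224, 1228 and 1281 in vehicle to 87.3, 107 and 91.5 at 24 h and 201, 97.1 and 172 at 48 h. Its vehicle and drug arrays did not overlap at either time, and its log2 change at 24 h was -3.51 ± 0.22 (adjusted p = 1.18e-11). Nek2, a centrosome kinase, had 635, 716 and 723 in vehicle and 43.6, 45.1 and 108 at 24 h, with 1 of the 24 h arrays above the others but far below vehicle. Cdc25b, a phosphatase that activates Cdk1, changed least of the role, from 476, 451 and 402 in vehicle to 263, 237 and 231 at 24 h and 154, 151 and 155 at 48 h. Its arrays were lower at 48 h than at 24 h without overlap, and its log2 change against vehicle was -0.82 ± 0.13 and then -1.44 ± 0.13 (adjusted p = 3.84e-05 and 5.41e-09). Plk1, a kinase of centrosomes, kinetochores and the midbody, had 587, 609 and 579 in vehicle and 74.9, 64.7 and 40.4 at 24 h, and Aurka, a kinase of spindle poles, 408, 492 and 367 and 62.6, 88.5 and 92.4. They kept 10.1% and 19.2% of their vehicle mean at 24 h, the embryonic leucine zipper kinase Melk 6.65%, and the phosphatase gene Cdc25c 5.53%.

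The 5 spindle checkpoint genes all fell at both times (medians -3.34 and -2.85). Bub1, a checkpoint kinase of the kinetochore, had the largest fall of the 56 genes on the log2(signal + 16) scale, while by signal it kept 4.13% of its vehicle mean at 24 h and Ttk 4%. Its signals were 1180.4, 1017 and 1119 in vehicle, 794, 809 and 811 at 8 h, 30.3, 37.4 and 69.2 at 24 h and 79.6, 61.0 and 84.5 at 48 h. None of the drug arrays at these times overlapped vehicle, and the log2 change at 24 h was -4.23 ± 0.22 (adjusted p = 6.4e-13). Mad2l1, the inhibitor of Cdc20, had 1517, 1739 and 1823 in vehicle and 180.5, 153 and 211 at 24 h, a log2 change of -3.12 ± 0.18 (adjusted p = 4.05e-12). Bub3, the protein that brings the Bub kinases to kinetochores, changed least of the 56 genes. It had 2775, 2842 and 2806 in vehicle, 1698, 1869 and 1569.8 at 24 h and 1526.5, 1181 and 1621 at 48 h. These groups did not overlap with vehicle, although the log2 change was only -0.71 ± 0.11 at 24 h (adjusted p = 3.4e-05). The checkpoint kinase Ttk was near the array background at 24 h, with 13.8, 8.3 and 17.0 against 277, 299 and 402 in vehicle, so the size of its change is limited by the background. Bub1b, the BubR1 subunit of the checkpoint complex, kept 8.17% of its vehicle mean.

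Genes that control anaphase fell in 5 of 5 cases at 24 h and at 48 h (medians -2.81 and -3.04). Cdc20, whose promoter is printed above, had 3749, 3309 and 3527 in vehicle, 3327, 3418 and 4199 at 8 h, 329, 231 and 270.1 at 24 h and 414, 301.5 and 362 at 48 h. The 8 h arrays overlapped the vehicle arrays, with 1 above them all, and the 24 h arrays were all far below, with a log2 change between 8 h and 24 h of -3.65 ± 0.15 (adjusted p = 7.44e-14). Ube2c, the ubiquitin-conjugating enzyme of the anaphase-promoting complex, had 3395, 3211 and 2796.5 at 8 h and 212, 154 and 197.5 at 24 h. Its log2 change of -3.96 ± 0.21 between those times was the largest among the 56 genes. Pttg1, securin, the inhibitor of separase, fell less, from 3729, 3904.5 and 3788 in vehicle to 1019.6, 1067 and 1143 at 24 h (log2 change -1.81 ± 0.14, adjusted p = 6.45e-10). Espl1, separase itself, had 341, 460.4 and 379 in vehicle and 35.2, 49.1 and 42.1 at 24 h. Fbxo5, Emi1, an inhibitor of the anaphase-promoting complex, was lower at 48 h (72.7, 73.7 and 72.2) than at 24 h (97.9, 78.1 and 109.9) without overlap, but the log2 difference of -0.31 ± 0.15 did not pass the test (adjusted p = 0.145).

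All 10 kinetochore and centromere genes fell at 24 h and at 48 h (medians -3.15 and -2.72). The 4 subunits of the Ndc80 complex, which couples kinetochores to microtubules, all fell by 3.06 or more on the log2 scale. Ndc80 had 530.4, 535 and 477 in vehicle and 3.3, 21.8 and 39.0 at 24 h, where only 1 array was above its 40th percentile. Its log2 change of -3.95 ± 0.36 has the largest error of the role (adjusted p = 7.13e-09), and its size is limited by the background. Spc25 had 1002, 1004 and 986 in vehicle and 52.9, 40.4 and 62.4 at 24 h, a log2 change of -3.91 ± 0.24 (adjusted p = 1.28e-11). Nuf2 and Spc24 changed by -3.11 ± 0.20 and -3.06 ± 0.22 on the same scale (adjusted p = 2.57e-11 and 1.18e-10). Cenpa, which marks the centromere, had 1059, 1123 and 1158 in vehicle, 1317, 1177 and 1248.5 at 8 h, 127, 94.7 and 107 at 24 h and 278, 211 and 239 at 48 h. Its 8 h arrays were all above its vehicle arrays, and its 48 h arrays all above its 24 h arrays. The kinetochore motor gene Cenpe kept 7.4% of its vehicle mean at 24 h and 14.2% at 48 h, and Cenpf, a large outer kinetochore protein, 8.26% and 9.98%. Cenpf had 1097, 1143 and 1238.5 in vehicle and 104, 109.8 and 73.1 at 24 h, and its log2 change was -3.41 ± 0.20 (adjusted p = 4.99e-12). Cenph and Cenpi of the inner kinetochore kept 8.41% and 9.63% at 24 h. The inner kinetochore gene Cenpk had already fallen at 8 h and is described with the early times.

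The chromosomal passenger complex corrects faulty attachments of chromosomes to the spindle, and its 4 genes fell at both times (medians -2.99 and -2.54). Birc5, survivin, had 1044, 1072 and 1099 in vehicle, 145, 92.4 and 129 at 24 h and 241, 159.5 and 273 at 48 h. Both drug groups lay below vehicle, and the 48 h arrays lay above the 24 h arrays. Incenp, the scaffold, had 2283, 2636 and 2821 in vehicle and 475, 436.5 and 487 at 24 h, a log2 change of -2.42 ± 0.16 (adjusted p = 3.32e-11). Aurkb, the kinase of the complex, changed by -2.97 ± 0.18 and Cdca8, borealin, by -3.20 ± 0.19 (adjusted p = 1.16e-11 and 4.25e-12).

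Of the kinesins, motors that move along microtubules, 7 of 7 tested genes fell at 24 h and at 48 h (medians -3.11 and -2.53). Kif11, Eg5, which pushes the spindle poles apart, had 845, 654 and 704 in vehicle, 56.2, 37.1 and 57.2 at 24 h and 60.6, 47.1 and 85.5 at 48 h. Its vehicle arrays lay far above both drug groups, which overlapped each other, and its log2 change at 24 h was -3.51 ± 0.20 (adjusted p = 4.25e-12). Kif2c, a microtubule depolymerase, had 502, 650.2 and 666.5 in vehicle and 50.1, 31.4 and 38.2 at 24 h, a log2 change of -3.48 ± 0.22 (adjusted p = 1.65e-11). Kif22, the chromokinesin Kid, changed least of the 7, from 1451, 1297 and 1566 in vehicle to 324, 338 and 424 at 24 h. Its 4 h vehicle arrays differed widely, at 1185 and 2151. The other members were Kif4 (chromokinesin), Kif20a and Kif23 (central spindle) and Kif20b (cytokinesis), which kept 8.53%, 6.24%, 9.2% and 11.1% of their vehicle means at 24 h. Kif4 at 24 h had signals of 52.5, 8.1 and 6.7, of which the lower pair is at background.

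The 4 spindle-binding genes fell at both times (medians -3.25 and -2.98). Nusap1, whose printed promoter holds neither motif, had 1463, 1276 and 1433 in vehicle, 1309, 1317.5 and 1372 at 8 h and 127, 91.5 and 99.4 at 24 h. The 8 h arrays lay within the range of the untimed vehicle arrays and above both 4 h vehicle arrays (1302 and 1135). The 24 h arrays lay far below all vehicle arrays, with a log2 change between 8 h and 24 h of -3.48 ± 0.20 (adjusted p = 9.77e-12). Tpx2, which activates Aurora A on the spindle, had 859, 867 and 871 in vehicle and 94.4, 84.1 and 89.6 at 24 h. The hyaluronan-mediated motility receptor Hmmr, which also binds the spindle, kept 7.23% of its vehicle mean at 24 h, and the cytoskeleton-associated Ckap2 kept 11%.

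In cytokinesis, the final cleavage of the cell, 4 of 4 genes fell at 24 h and at 48 h (medians -2.96 and -2.58). Ect2, the exchange factor that activates RhoA at the cleavage furrow, had 830.4, 956 and 986 in vehicle, 68.4, 56.2 and 51.5 at 24 h and 89.9, 91.4 and 65.0 at 48 h, and the log2 change at 24 h was -3.66 ± 0.21 (adjusted p = 4.07e-12). Anln, anillin, the scaffold of the contractile ring, had 1296, 1245 and 1404 in vehicle and 148, 127 and 122.5 at 24 h. Neither gene's drug arrays came near its vehicle arrays. Prc1, which bundles the central spindle, and Racgap1, a subunit of centralspindlin, changed by -2.74 ± 0.23 and -2.48 ± 0.23 (adjusted p = 1.71e-09 and 1.19e-08).

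Genes of chromosome structure fell in 8 of 8 cases at both times (medians -2.79 and -2.87). Top2a, which untangles sister chromatids, had 4042, 3665 and 3509 in vehicle, 3091, 3041 and 3118 at 8 h and 303.5, 199.9 and 252 at 24 h. The 8 h arrays lay below all vehicle arrays, though the log2 difference from the 4 h vehicle arrays, -0.32 ± 0.20, did not pass the test (adjusted p = 0.536). Among the condensin subunits, Smc2 changed at 24 h by -2.92 ± 0.14, Ncapg by -3.53 ± 0.25, Ncaph by -1.98 ± 0.16, Ncapd2 by -1.94 ± 0.17 and Smc4 by -1.81 ± 0.14 on the log2 scale, with limma adjusted p between 1.51e-13 and 3.48e-09. Ncapd2, for example, had 1010.2, 971 and 906 in vehicle and 222, 277 and 223 at 24 h, well above the background of 18.7 to 28.6 set by the 40th percentiles. Mki67 had 3715, 4144 and 4319 at 8 h and 372, 304 and 362 at 24 h, a log2 change of -3.49 ± 0.17 between these times (adjusted p = 1.05e-12). Cdca2, Repo-Man, which recruits a phosphatase to chromatin, kept 13.4% of its vehicle mean at 24 h. The remaining gene, Cdca3, a trigger of mitotic entry, kept 8.12%.

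**Figure D2:**
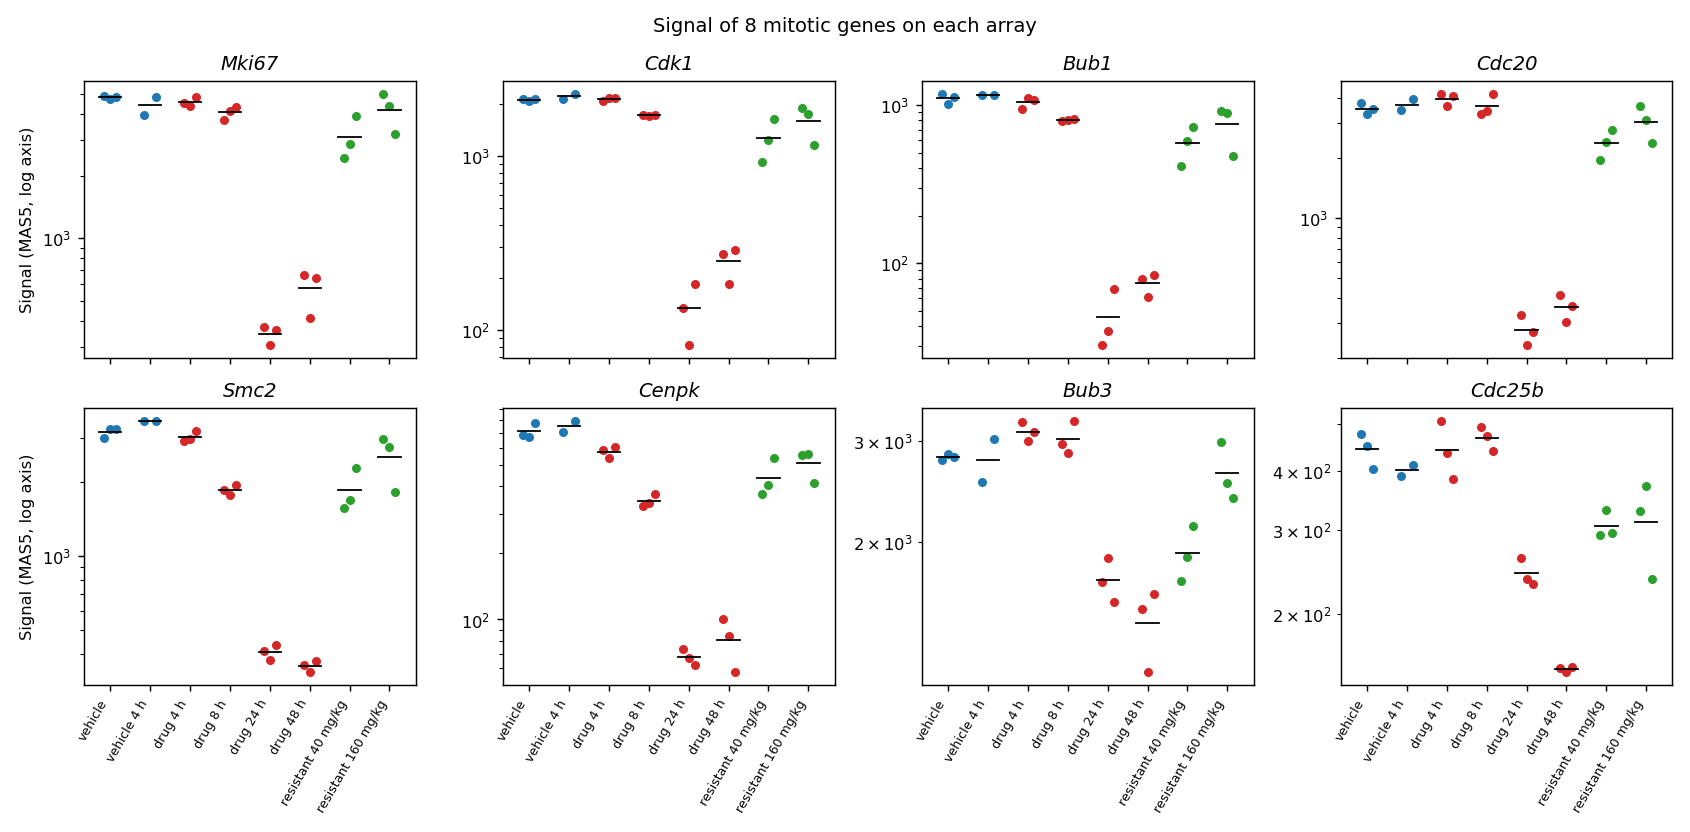
MAS5 signal (log axis) of 8 genes on each array, by group; points are arrays and short lines are group means. Mki67, Cdk1, Bub1 and Cdc20 are nearly level through 4 h and drop most between 8 h and 24 h. The 8 h arrays of Cdk1 and Bub1 already lie below all vehicle arrays, without passing the test. Smc2 and Cenpk are called lower at 8 h, and Bub3 and Cdc25b move least (log2 changes of -0.71 and -0.82 at 24 h).

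The 2 kinds of vehicle were first set against each other. Between the 4 h vehicle arrays and those with no stated time limma called 0 of the 56 genes, with 1 (Ncapd2) at an unadjusted p under 0.05, where 0.0912% of all probe sets were called lower and 0.0314% higher. At 4 h of drug limma called 0 of the 56 genes against the 4 h vehicle, where 0.234% of all probe sets were called lower and 0.0513% higher. At an unadjusted p under 0.05 there was 1 gene, Cenpk, and the median log2 change was 0.06, with 33 genes above 0 and 23 below. At 8 h, 2 genes were called lower, Cenpk and Smc2, and none higher, where 1.8% and 1.45% of all probe sets were. The median change at 8 h was -0.17, against 0.01 over all tested probe sets, and 41 of the 56 genes were below 0. For 26 genes every 8 h array was below both 4 h vehicle arrays, as were 15.7% of all probe sets. At an unadjusted p under 0.05 there were 7: Bub1, Cenph, Cenpk, Fbxo5, Ncapg, Ncaph and Smc2.

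Cenpk, a subunit of the constitutive centromere network, had 706 and 793 in the 4 h vehicle arrays, 582.5, 537 and 605 at 4 h and 326, 338 and 369.5 at 8 h. The 3 groups did not overlap. Its log2 change from the 4 h vehicle was -0.37 ± 0.17 at 4 h (adjusted p = 0.725) and -1.09 ± 0.17 at 8 h (adjusted p = 0.000383). At 24 h it had 73.6, 67.0 and 62.5. Smc2, the ATPase subunit of condensin, had 3537 and 3539.5 in the 4 h vehicle arrays, 2933, 2993 and 3204 at 4 h and 1851, 1769.9 and 1948 at 8 h, again without overlap. Its log2 change was -0.93 ± 0.15 at 8 h (adjusted p = 0.000625). Smc4, the partner ATPase in the same ring, had 2528 and 2571 and 2109, 2383 and 2314 in these groups, a log2 change of -0.17 ± 0.16 (adjusted p = 0.724). Between 4 h and 8 h of drug itself, Smc2 and Cenpk were the 2 genes called lower and none was called higher, where 0.402% and 0.0827% of all probe sets were. Their log2 changes were -0.71 ± 0.14 (adjusted p = 0.0103) and -0.71 ± 0.15 (adjusted p = 0.0277), and at an unadjusted p under 0.05 there were 8 genes. These 2 calls depended on single arrays. Cenpk lost it without any 1 of the 6 arrays (adjusted p 0.0709 to 0.164), and Smc2 kept it only without replicate 1 at 4 h (0.0374) or replicate 3 at 8 h (0.0413) and otherwise had 0.0511 to 0.0843.

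Genes of DNA replication were lower at 8 h in larger numbers, in lists made for this comparison. Of 23 origin licensing and helicase genes, 14 were called lower at 8 h (median -1.02), and of 28 replication fork and S phase genes, 22 were (median -1.01). At 24 h these lists held 19 and 27 called lower genes, with medians of -2.16 and -1.91, against -3.12 for the mitotic genes. Of all probe sets 1.8% were called lower at 8 h and 12.5% at 24 h. At 4 h limma called none of the licensing or fork genes, and 3 of each list had an unadjusted p under 0.05. These comparisons share control arrays. Among tested mitotic genes with a promoter window, the 9 with an E2F-like core had a median log2 change of -0.36 at 8 h and the 39 without had -0.16, in overlapping ranges. The other motifs split the genes by similar amounts, also in overlapping ranges. The 8 h median was -0.12 for 36 genes with a CHR and -0.31 for 12 without. It was -0.13 for 37 genes with a CCAAT box and -0.28 for 11 without.

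**Figure D3:**
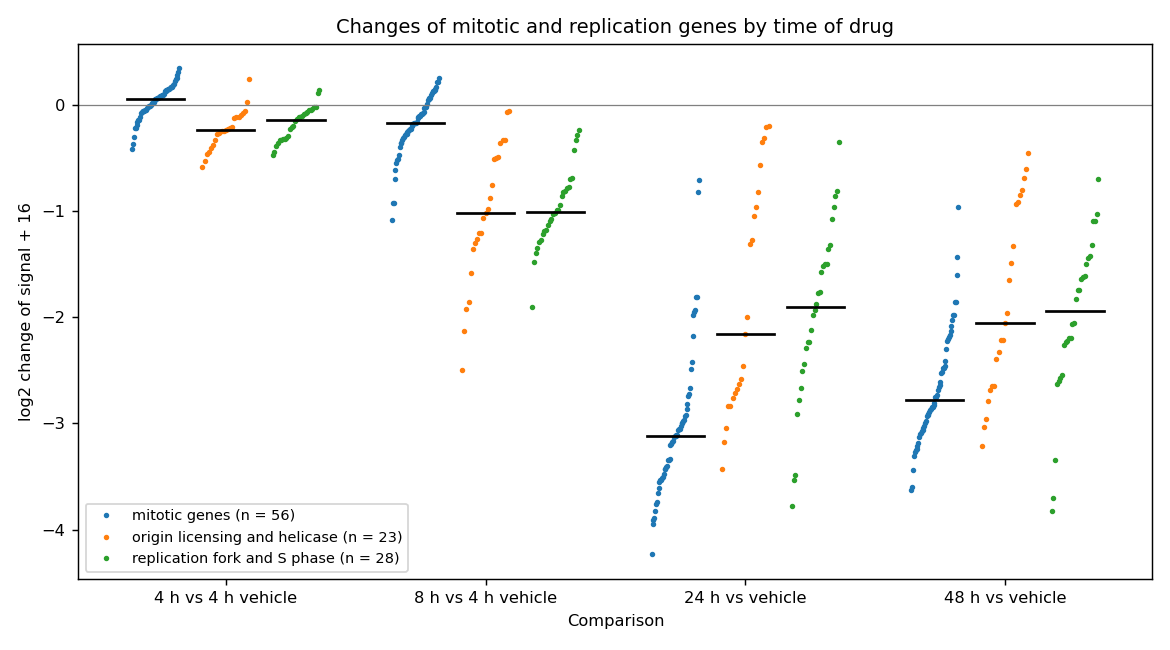
Log2 change of signal + 16 at 4, 8, 24 and 48 h for the mitotic genes (56), origin licensing genes (23) and replication fork and S phase genes (28); points are genes and black lines are medians. At 8 h the mitotic median is -0.17 while the other medians are -1.02 and -1.01, and at 24 h the mitotic median is the lowest, at -3.12.

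Between 8 h and 24 h all 56 genes fell, by a median of -3.04, where 7.14% of all probe sets were called lower and 6.86% higher. From 24 h to 48 h the changes were mixed. At 48 h 15 genes were higher than at 24 h, where 9.73% of all probe sets were called higher, and 1 gene was lower, where 10.8% were; the median change of the 56 was 0.37 and 27 had an unadjusted p under 0.05. Of the 15, 5 were kinetochore genes (Cenpa, Cenpe, Cenpi, Nuf2 and Spc25) and 3 were kinesins (Kif4, Kif20a and Kif23). Cenpa had the smallest p, with 127, 94.7 and 107 at 24 h and 278, 211 and 239 at 48 h, a log2 change of 1.04 ± 0.17 (adjusted p = 8.12e-05). Cdk1 changed by 0.86 ± 0.21 and Birc5 by 0.79 ± 0.18 (adjusted p = 0.00452 and 0.00238). Mki67 had 372, 304 and 362 at 24 h and 664, 413 and 640.5 at 48 h, again without overlap (log2 change 0.68 ± 0.17, adjusted p = 0.00519). The gene that fell was Cdc25b (log2 change -0.62 ± 0.13, adjusted p = 0.00156).

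The 48 h arrays differed among themselves, and replicate 3 was the lowest of the 3 for 45 of the 56 genes. Without that array 25 genes were called higher at 48 h than at 24 h. The count was 6 without 48 h replicate 1, 7 without replicate 4 and 5 without 24 h replicate 2, while Cdc25b was called lower whichever array was left out. Only Birc5 and Cdc25b kept their calls under all 16 alternatives tried. The 48 h replicate 3 array had the highest muscle markers of its group, summing to 19541, and the lowest macrophage markers, summing to 29286. All 14 macrophage markers were higher at 48 h than at 24 h, and their part in the mitotic differences was not tested.

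Resistant tumours under 40 mg/kg had lower mitotic signals than vehicle. In them 47 of the 56 genes were called lower and none higher, where 3.29% and 3.83% of all probe sets were, with a median log2 change of -0.78 against 0.02 over all probe sets. For 52 genes every resistant array was below every vehicle array, as were 9.98% of all probe sets. Mad2l1 had 1517, 1739 and 1823 in vehicle and 648, 764 and 1034.5 in resistant tumours at 40 mg/kg, a log2 change of -1.06 ± 0.18 (adjusted p = 0.000613). Nek2 had the largest change, from 635, 716 and 723 to 178, 340.3 and 343 (log2 change -1.28 ± 0.25, adjusted p = 0.00221). Ckap2 had 891, 867 and 998.5 in vehicle and 259, 451 and 576 in these tumours (log2 change -1.14 ± 0.22, adjusted p = 0.0018). In each of these 3 genes the resistant and vehicle arrays did not overlap, and the lowest resistant array was replicate 1.

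Nusap1 changed by -1.07 ± 0.20 and Racgap1 by -1.07 ± 0.23 (adjusted p = 0.00132 and 0.00469). All 8 chromosome structure genes, all 5 checkpoint genes and all 4 genes each of the passenger complex, the spindle-binding proteins and cytokinesis were among the 47. The 9 genes not called were Espl1, Kif22, Kif2c, Kif4, Cenpi, Ndc80, Aurka, Cdc25c and Melk. Kif22 had 1036, 1388 and 1392 against 1451, 1297 and 1566 in vehicle, overlapping groups (log2 change -0.18 ± 0.20, adjusted p = 0.683). Aurka had 212, 321 and 398 against 408, 492 and 367, which also overlapped (log2 change -0.46 ± 0.19, adjusted p = 0.171).

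Genes read widely as markers of dividing cells were among the 47. Mki67 had 4859.9, 4735 and 4837 in vehicle and 2455, 2858 and 3900.2 in resistant tumours at 40 mg/kg, a log2 change of -0.67 ± 0.17 (adjusted p = 0.0141). Cdk1 had 930.5, 1237 and 1637, a log2 change of -0.76 ± 0.21 from its vehicle signals given above (adjusted p = 0.0268). Top2a had 1629, 1999.5 and 2349.6, a log2 change of -0.92 ± 0.18 (adjusted p = 0.00201). In all 3 genes every resistant array was below every vehicle array. At 160 mg/kg Mki67 had 5002, 4344 and 3186, Cdk1 1898, 1744 and 1152 and Top2a 3062, 3164.5 and 1786, and none of these passed the test against vehicle (adjusted p = 0.592, 0.374 and 0.167). Smc2 and Cenpk, the genes that had fallen at 8 h, had 1569, 1697 and 2283.5 and 368.5, 408 and 536 at 40 mg/kg. Their log2 changes from vehicle were -0.80 ± 0.14 and -0.69 ± 0.15 (adjusted p = 0.000685 and 0.00574).

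The count of called genes in this comparison depended on single arrays and on the probe set. Left out in turn, resistant replicates 1, 2 and 3 gave 17, 28 and 50 called genes, and vehicle replicates 1, 2 and 3 gave 23, 27 and 24. With the lowest-mean probe set of each gene 25 were called. Under all 17 alternatives 9 genes kept the call, namely Aurkb, Birc5, Cdca8, Ckap2, Mad2l1, Racgap1, Smc2, Smc4 and Top2a. The lowest-mean probe sets of Nek2 and Nusap1 had mean signals of 7.5 and 22.6 in vehicle, near background.

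Resistant tumours under 160 mg/kg were closer to vehicle. The median log2 change was -0.45, all 56 genes were below 0, 1 was called lower, Mad2l1, and none higher, where 0.208% and 0.804% of all probe sets were. At an unadjusted p under 0.05 there were 34 genes, and for 38 genes every array was below every vehicle array, as were 8.3% of all probe sets. Mad2l1 had 1154, 1260.0 and 676 in these tumours, below all vehicle arrays (log2 change -0.75 ± 0.18, adjusted p = 0.0412). Its call was lost without resistant replicate 3 (log2 change -0.48, adjusted p = 0.29) or without vehicle replicate 1, 2 or 3 (adjusted p = 0.0868, 0.129 and 0.136). Without resistant replicate 1 there were 5 called genes, and without replicate 2 there were 2. Bub3 had 2991, 2528 and 2383.5, a range that overlapped vehicle (log2 change -0.10 ± 0.11, adjusted p = 0.766).

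Against the 48 h arrays, all 56 genes were higher in both resistant groups, by medians of 1.92 and 2.27 on the log2 scale. Among all probe sets 14.6% were called higher and 15.4% lower at 40 mg/kg, and 14.5% and 16.2% at 160 mg/kg; the 160 mg/kg tumours also differ in dose from the 48 h tumours. Ube2c had 242, 154 and 245 at 48 h, 984, 1651 and 1966 in resistant tumours at 40 mg/kg and 2259, 2417 and 1412 at 160 mg/kg. No resistant array overlapped the 48 h arrays, and the log2 differences were 2.72 ± 0.21 and 3.14 ± 0.21 (adjusted p = 7.82e-10 and 6.21e-11). Cdc20 had 1944, 2395 and 2775 at 40 mg/kg and 3634, 3097 and 2382 at 160 mg/kg, against 414, 301.5 and 362 at 48 h. Bub3 differed least, by 0.41 ± 0.11 and 0.87 ± 0.11 (adjusted p = 0.00784 and 2.17e-06). Across the 56 genes the log2 change between 8 h and 24 h and the log2 difference between resistant 40 mg/kg and 48 h tumours, which share no arrays, had a Pearson r of -0.749 and a Spearman rho of -0.716, given as a description. Genes are not independent replicates, and each point uses the same probe set on both axes. As a share of the vehicle mean, signals ran from 41.5% (Nek2) to 88.4% (Kif22) at 40 mg/kg and from 55.9% (Cenph) to 93.8% (Bub3) at 160 mg/kg.

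**Figure D4:**
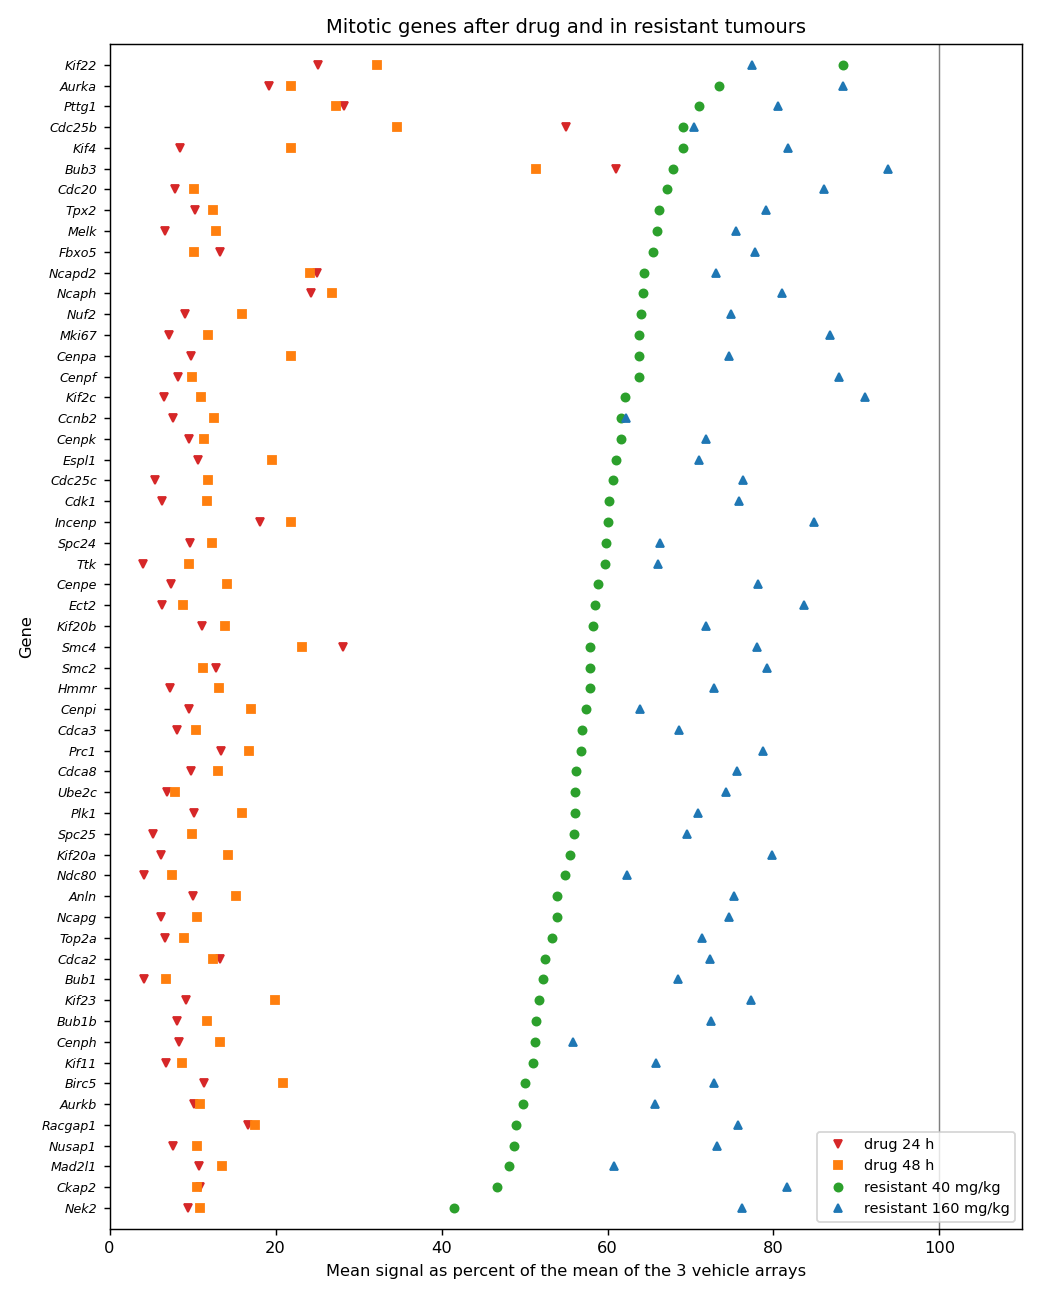
Mean signal of each gene as a percent of its mean on the 3 vehicle arrays, at 24 h, at 48 h and in resistant tumours at 40 and 160 mg/kg; genes are ordered by the 40 mg/kg resistant value. The 24 h values run from 4% (Ttk) to 61% (Bub3), and the resistant values lie to the right of the 24 h and 48 h values for each gene.

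Between the resistant groups, 55 of 56 log2 differences, 160 minus 40 mg/kg, were above 0 (median 0.34). Of these 2 passed the test, where 1.35% of all probe sets were called higher and 0.778% lower, and 19 had an unadjusted p under 0.05. Bub3 had 1709, 1881 and 2131 at 40 mg/kg and 2991, 2528 and 2383.5 at 160 mg/kg without overlap (log2 change 0.46 ± 0.11, adjusted p = 0.029). Ckap2 had 259, 451 and 576 and 874, 853 and 521, with the lowest 160 mg/kg array inside the 40 mg/kg range (log2 change 0.82 ± 0.22, adjusted p = 0.0481). Leaving out 160 mg/kg replicate 1, 2 or 3 gave 0, 0 and 18 called genes, and leaving out 40 mg/kg replicate 1, 2 or 3 gave 0, 0 and 7. Both calls were lost without replicate 1 or 2 of either group.

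Within each resistant group the same replicate was lowest for nearly all genes. Replicate 1 was the lowest of the 40 mg/kg arrays for 53 of 56 genes, and replicate 3 the lowest of the 160 mg/kg arrays for 55. The mean log2 signal of the 56 genes, minus the vehicle mean, was -1.13, -0.79 and -0.43 on 40 mg/kg replicates 1, 2 and 3, and -0.17, -0.28 and -0.89 on the 160 mg/kg replicates. On the vehicle arrays it was -0.01 to 0.01. The macrophage markers summed to 13175, 11056 and 9088 on the same 40 mg/kg arrays and to 3136.5, 7451 and 12282 on the 160 mg/kg arrays. In both groups the array with the lowest mitotic mean had the highest macrophage sum, and also the highest granule lineage and erythroid sums. Other marker sets did not go the same way in both groups. On 40 mg/kg replicate 1 the endothelial (1192) and adipocyte (702) sums were the lowest and the muscle sum (6793) the highest. On 160 mg/kg replicate 3 the fibroblast (26608), endothelial (2482) and adipocyte (7717) sums were the highest and the muscle sum (1977) the lowest. The granule lineage markers summed to 19368, 15172 and 17432 on 40 mg/kg replicates 1, 2 and 3. On the 160 mg/kg replicates they summed to 17547, 18243 and 18373. Of the 14 macrophage markers 12 were called higher than vehicle at 40 mg/kg and 8 at 160 mg/kg. Of 15 fibroblast markers 7 were called higher at 40 mg/kg and, by limma, 0 at 160 mg/kg (9 at an unadjusted p under 0.05), and of 3 erythroid markers 2 and 1 were. The log2 difference between 3′ and 5′ actin signals was 1.46, 0.89 and 0.91 on 40 mg/kg replicates 1, 2 and 3 and 1.38, 1.07 and 1.35 on the 160 mg/kg replicates, against 1.00 to 1.08 in vehicle. On the 24 h arrays macrophage sums of 3728 to 6163 went with mitotic means of -3.17 to -2.94. Those arrays also had muscle sums of 15054 to 20147, so macrophage sums alone cannot set them against the resistant arrays. The part of any of these measures in the mitotic differences was not tested.

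**Figure D5:**
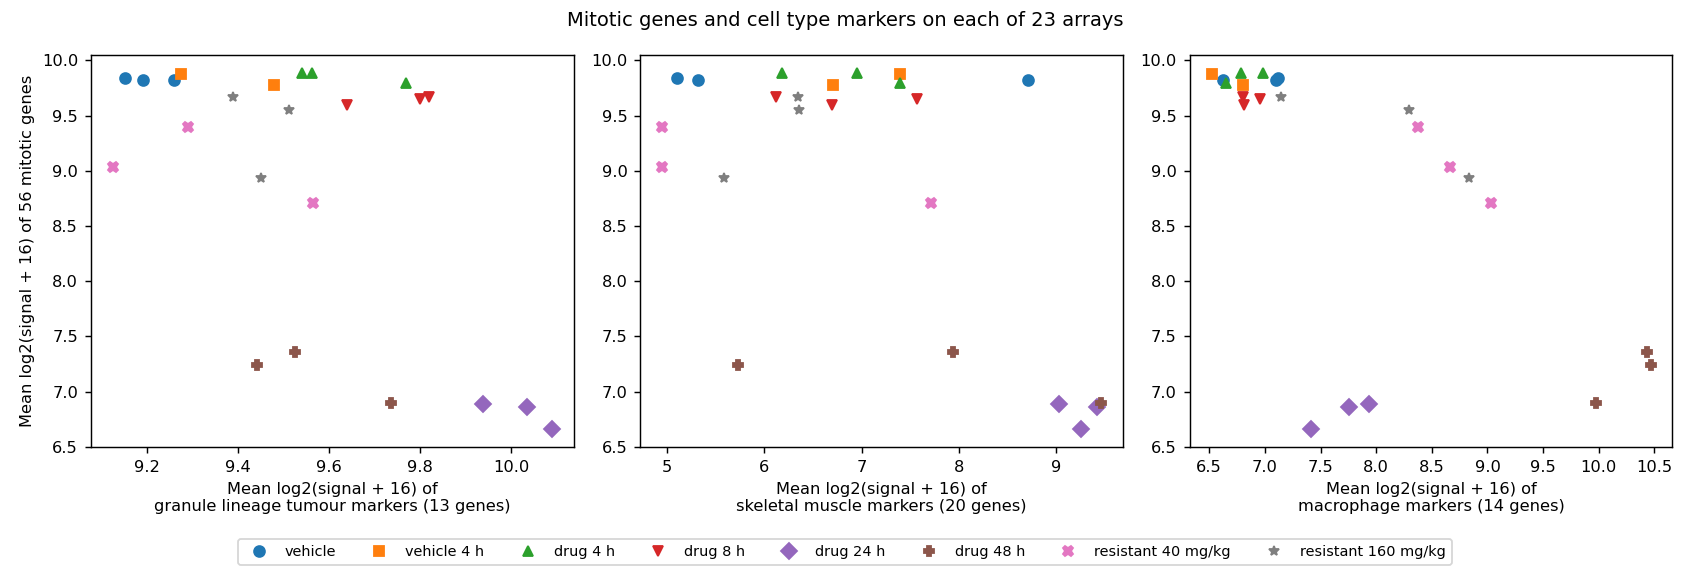
Mean log2(signal + 16) of the 56 mitotic genes (vertical) against the mean of granule lineage (13 genes), skeletal muscle (20) and macrophage (14) markers (horizontal) on each of 23 arrays; symbols mark groups. Vehicle arrays have nearly equal mitotic means, and the highest muscle value among them is from untimed replicate 2. Resistant arrays with higher macrophage markers have lower mitotic means. The 24 h arrays have mitotic means of -3.17 to -2.94 relative to vehicle, and their macrophage sums are within the range of the 160 mg/kg arrays. Fibroblast markers, not drawn, summed to 21878 to 28877 at 24 h and 4866 to 10847 in untimed vehicle. The part of any marker set in the mitotic means was not tested.

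Other probe sets of these genes mostly moved with the one shown. Of the 122 tested probe sets 107 were lower at 24 h, 109 at 48 h and 69 in resistant tumours at 40 mg/kg, against 12.5%, 17.7% and 3.29% of all tested probe sets. Of the 15 not called at 24 h, 4 belong to Bub3, of which the brightest had means of 349 in vehicle and 264 at 24 h (log2 change -0.39, adjusted p = 0.0841). At 8 h 6 probe sets were called lower, against 1.8% of all: 2 of Cenpk, 3 of Smc2 and 1 of Top2a. The Top2a probe set had means of 482 in the 4 h vehicle arrays and 251 at 8 h (log2 change -0.92, adjusted p = 0.0341), whereas the brightest Top2a probe set was not called there. The probe sets that stand for Aurkb, Bub1b, Bub3, Cdc20, Cdc25c, Cdca8, Incenp, Kif22, Kif2c, Ncaph, Nek2, Prc1 and Pttg1 are of the classes (_s_at and _x_at) that can share probes with other transcripts, so their values are less certain.

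A second list held 76 other tested genes of mitosis, chosen by name. At 24 h 68 of them were lower (median -1.86) and at 48 h 70 (median -1.74), where 12.5% and 17.7% of all probe sets were called lower. Pbk, a mitotic kinase, went from 1791 in vehicle to 128 at 24 h, and Ccna2, cyclin A2, from 2263 to 171, as means of 3 arrays. Their log2 changes were -3.66 ± 0.18 and -3.63 ± 0.18 (adjusted p = 3.32e-13 and 5.15e-13). The 8 genes not called at 24 h were the anaphase-promoting complex subunits Anapc1, Anapc4, Anapc5, Anapc7 and Cdc23 and the kinetochore genes Cenpo, Cenpt and Zwint. At 4 h limma called 0 of them, with 2 at an unadjusted p under 0.05, and at 8 h 4 were called lower, namely Cenpq, Mis12, Ncapg2 and Wee1, where 1.8% of all probe sets were. In resistant tumours 25 of the 76 were lower at 40 mg/kg (median -0.57), where 3.29% of all probe sets were. At 160 mg/kg limma called none, with 25 at an unadjusted p under 0.05 (median -0.30).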

How the data were processed

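The authors deposited 1 linear signal intensity per probe set and array, made with MAS5 per the submitters' processing notes (version not given). The 2% trimmed mean of the deposited intensity was 150 on each array, to which it had been scaled. The design text names the 430A 2.0 array, yet the deposited values hold 45101 probe sets, as on the Mouse 430 2.0 array. Detection calls and probe-level data were not used here.

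Symbols came from the platform annotation (34958 probe sets with 1, 932 with several, 9211 with none), and 64 control probe sets were left out. Log2(signal + 16) was fitted with limma 3.58.1 in R 4.3.3, with a mean for each of 8 groups and eBayes with trend (15 residual and 8.5 prior df). Tests were two-sided, with Benjamini-Hochberg adjustment over 35069 probe sets (14980 named genes) in each of 13 comparisons. The control was the 4 h vehicle for the 4 h and 8 h arrays and the untimed vehicle for later ones. The code was tested on simulated data.

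Members and lists were chosen with earlier results of these data known, so counts are not independent evidence. Full values are given in each role for 2 to 5 genes with the highest signal or smallest p at 24 h, for genes called at 8 h and, of those called in resistant tumours, for the 5 with the largest changes. Some other members are given where a result turns on them.

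Alternatives were other offsets (1 and 64), no filter and a 60th percentile filter, quantile normalization, no trend, only the compared arrays, all 5 vehicle arrays, the lowest-mean probe set, a block for replicate number or for title number runs, and each array left out. The deviations of same-numbered arrays from their group means had correlations of -0.115 to 0.077. With 2 or 3 such pairs in a comparison, this cannot tell whether the numbers pair samples. The main fit used no pairing, and counts with the replicate block are given below.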

Additional observations from a re-analysis of the deposited data

Results flagged for a closer look

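Between 4 h and 8 h of drug the tested log2 difference was -0.71 for Cenpk and -0.71 for Smc2 (limma adjusted p = 0.0277 and 0.0103). They kept the call under 8 and 10 of 16 alternatives, and neither kept it under all of them.

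Between 24 h and 48 h the direct test differed for 16 genes. Cdc25b was lower at 48 h, by -0.62 (adjusted p = 0.00156). Among kinetochore genes the differences, 48 h minus 24 h, were 1.04 for Cenpa, 0.82 for Cenpe, 0.70 for Cenpi, 0.63 for Nuf2 and 0.70 for Spc25. Among kinesins they were 0.82 for Kif20a, 0.81 for Kif23 and 1.07 for Kif4. For the checkpoint kinases they were 0.60 for Bub1 and 0.70 for Ttk. The others were 0.86 for Cdk1, 0.79 for Birc5, 0.62 for Espl1, 0.68 for Hmmr and 0.68 for Mki67. Adjusted p-values for the 15 higher genes ran from 8.12e-05 (Cenpa) to 0.0495 (Bub1). Of 16 alternatives the call held in 16 for Birc5 and Cdc25b, 15 for Cenpa and Mki67, 14 for Cdk1 and 13 for Cenpe, and in 4 for Bub1, Espl1 and Spc25.

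Between the resistant groups, 160 minus 40 mg/kg, the difference was 0.46 for Bub3 and 0.82 for Ckap2 (adjusted p = 0.029 and 0.0481). They kept the call under 9 and 6 of 16 alternatives.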

How the results depend on the processing

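Under every alternative, arrays left out included, the members called lower numbered 46 to 56 at 24 h, 48 to 56 at 48 h and 47 to 56 between 8 h and 24 h, and those called higher in resistant than in 48 h tumours numbered 42 to 56 at 40 mg/kg and 44 to 56 at 160 mg/kg, with the lowest counts from the lowest-mean probe sets. Other counts moved, and the cause was not tested. For 40 mg/kg resistant tumours against vehicle (47 lower) the count was 25 with the lowest-mean probe sets, 24 without trend and 17 to 50 with an array left out. For 160 mg/kg against vehicle (1 lower) it was 0 without filter, without trend, with only the compared arrays and with a block for identifier run, 2 with the 60th percentile filter and 0 to 5 with an array left out. For 160 against 40 mg/kg (2 higher) it was 1 with the offset of 1, no filter, the identifier run or the lowest-mean probe sets, 0 with only the compared arrays or without trend, and 0 to 18 with an array left out. For 48 h against 24 h (15 higher) it was 6 with the offset of 64, 6 with only the compared arrays, 8 without trend and 5 to 25 with an array left out. For 8 h against 4 h of drug (2 lower) it was 0 with the lowest-mean probe sets or without trend, 11 with only the compared arrays and 0 to 1 with an array left out. For 8 h against the 4 h vehicle (2 lower) it was 8 with only the compared arrays and 5 with all 5 vehicle arrays as control. With the lowest-mean probe set, the difference of Kif23 between 48 h and 24 h turned to -0.26 (adjusted p = 0.603) and that of Bub3 between the resistant groups to -0.023 (adjusted p = 0.988). Of 369 settings for 23 single genes, 229 kept direction and call and 138 kept direction only. Signals near the 40th percentile limit the 24 h values.

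With the replicate number as a block, the counts were 44 for 40 mg/kg resistant tumours against vehicle, 0 for 160 mg/kg against vehicle, 4 for 48 h against 24 h and 1 for 160 against 40 mg/kg. The counts of all other comparisons were the same with the block.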

Other observations

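Regulators of mitotic transcription were measured on the same arrays, in a list of 23 tested genes. At 8 h 5 of them were called lower (E2f1, Lin54, Mybl2, Rbl1 and Tfdp1), and at 24 h 13 were lower and 1, E2f3, was higher. Of all probe sets 1.8% were called lower and 1.45% higher at 8 h, 12.5% and 16.6% at 24 h, and 17.7% and 20.6% at 48 h. At 48 h 16 were lower and 1, Rbl2, a pocket protein of quiescent cells, was higher, by 0.40 on the log2 scale (adjusted p = 0.00679). Foxm1, an activator of late cell cycle genes, had 233, 232 and 285 in vehicle, 151, 191 and 217.5 at 8 h, 9.1, 42.0 and 34.9 at 24 h and 29.0, 8.7 and 43.9 at 48 h. Its log2 change was -0.35 ± 0.36 at 8 h (adjusted p = 0.762), -2.66 ± 0.32 at 24 h (adjusted p = 6.56e-07) and -1.12 ± 0.32 in resistant tumours at 40 mg/kg (adjusted p = 0.0334). Mybl2, B-Myb, had 96.6 and 141 in the 4 h vehicle arrays and 40.1, 56.2 and 37.6 at 8 h, a log2 change of -1.15 ± 0.27 (adjusted p = 0.0153), and it was also lower at 40 mg/kg (-0.89 ± 0.24, adjusted p = 0.0244). E2f1, an activator of replication genes, had 276, 306 and 266 at 8 h, below 453 and 568 in the 4 h vehicle arrays (log2 change -0.81 ± 0.19, adjusted p = 0.0153) but overlapping 281, 346 and 355 in the untimed vehicle arrays. At 24 h its log2 change was -1.09 ± 0.17 (adjusted p = 2.48e-05). In resistant tumours at 40 mg/kg it had 370.3, 238 and 224, which overlapped vehicle (log2 change -0.25 ± 0.17, adjusted p = 0.455). None of the 23 was called by limma at 160 mg/kg, and 2 had an unadjusted p under 0.05.

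In resistant tumours at 40 mg/kg 47 of the 56 mitotic genes were called lower than vehicle. Of all probe sets 3.29% were called lower there and 3.83% higher. Of 5 Hedgehog response genes (Ccnd1, Gli1, Gli2, Hhip and Ptch1) 1 was called lower there and none higher. By limma 3 of the 5 had an unadjusted p under 0.05. The gene called was Hhip, an inhibitor of Hedgehog ligands, with 20.6, 100.5 and 35.4 against 210.2, 184 and 238 in vehicle (log2 change -1.90 ± 0.35, adjusted p = 0.00129). Gli1, a transcription factor and target of the pathway, had 1259, 1269 and 966 there against 631, 695.5 and 710.2 in vehicle, all above it (log2 change 0.76 ± 0.31, adjusted p = 0.167). Ptch1 had 2296, 2885 and 2079 against 2830.5, 2513 and 2796 (log2 change -0.18 ± 0.15, adjusted p = 0.578). At 160 mg/kg the log2 changes of Gli1 and Ptch1 were -0.10 ± 0.31 and -0.34 ± 0.15 (adjusted p = 0.931 and 0.31). At 160 mg/kg limma called 0 of the 5, with 1 at an unadjusted p under 0.05.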
